A study of Mus musculus with 82 samples.

Results

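The measurements described here concern 10 genes that encode inhibitors of ERK signaling and of the EGF receptor. They were picked by name from the 55401 genes of the count table, not by their values, but with earlier results of these data known. They are the Sprouty genes Spry1, Spry2 and Spry4, the Spred genes Spred1, Spred2 and Spred3, the phosphatase genes Dusp4, Dusp5 and Dusp6, and Errfi1. All 10 passed the filter on low counts at both times, among 14653 genes tested after 24 h and 15796 after 48 h. RNA was sequenced from aVSMC, passaged primary cultures of smooth muscle from C57BL/6 mouse aorta. Every group, the controls included, was grown in medium with 10% FCS, insulin, transferrin, hydrocortisone, selenium and EGF and was then held without serum or supplements for 24 h before the incubations. The age and sex of the mice are not given in the sources used here. Control cultures received the supplement-free medium alone, and the others 10 µg/L EGF, 10 nM AngII or 1 µM U46619, a stable agonist of the thromboxane receptor TP. After 24 h there were 7 groups: the control, each substance alone, EGF with either of the others, and all 3 together. Each of mice 1 to 6 gave 1 culture per group (n = 6). After 48 h there were 2 batches of 5 culture sets, some of them from the same mouse by the labels. The EGF/U46619 batch (sets B1-1 to B1-5) held control, EGF, U46619 and EGF+U46619, and the EGF/AngII batch (B2-1, B2-2, B2-4, B2-5 and B2-6) held control, EGF, AngII and EGF+AngII.

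ERK is the last kinase of the cascade that runs from growth factor receptors over RAS, RAF and MEK, and its activity induces genes whose products switch the cascade off again. Sprouty proteins interfere between the receptor and RAF, Spred proteins bring the RAS inactivator neurofibromin to the membrane, and the dual-specificity phosphatases remove the activating phosphates from ERK, Dusp6 in the cytoplasm, Dusp4 and Dusp5 in the nucleus. Errfi1, also called MIG6, binds the kinase domain of EGFR itself and promotes its degradation. In smooth muscle this cascade is known for its part in proliferation and in the loss of the contractile state.

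The values below are FPM, the counts per mega-fragment that edgeR's cpm function gives from the TMM-normalized size of each library, and a level is compared between genes only after division by the length of the annotated exons. A gene was called a DEG in a comparison when both edgeR and DESeq2 gave an FDR under 0.05 and 1 of the groups reached a mean of 5 FPM. After 48 h both batches were fitted together by mouse, without a term for batch or culture set. The 48 h log2-fold changes with U46619 therefore draw partly on libraries of the EGF/AngII batch, and can differ from the differences within sets. The total count per library lay between 16483529 and 20818809 after 24 h and between 19936925 and 33916114 after 48 h, and the lowest count of any of the 10 genes in a library was 27 (Spry4 with AngII in mouse 1). Libraries of 1 mouse or set deviated together from their group means in 126 of 126 pairs after 24 h and in 57 of 60 pairs after 48 h. One library stood apart, the control of set B2-4, whose median correlation with the rest of its set was −0.429. In that library Spry1 was at 29.7 FPM and Errfi1 at 17.0 FPM, whereas the other libraries of the set held 124 to 144 FPM of Spry1 and 118 to 135 FPM of Errfi1. The library of mouse 3 with EGF+AngII+U46619 also stood apart for Spred2, at 15.006 FPM against 36.8 to 72.5 FPM in the other 5 mice. It was the lowest of its group for Spred1 too, at 42.6 FPM, and its median correlation with its set, 0.592, was the lowest after 24 h.

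The smooth muscle label was checked against marker genes. Acta2, the smooth muscle actin, was at 2602 ± 1405 FPM (SD, n = 6) in the 24 h controls and Myh11, the smooth muscle myosin, at 2.68 to 90.9 FPM. Tagln and Cnn1, both defining markers, are listed at 0 in every library, but so are all 7075 genes of chromosomes 9, X, Y and MT, where they lie. The endothelial gene Cdh5 is listed at 0 as well. Markers of other cells were present: the 6 fibroblast markers summed to 378 to 3148 FPM and the 4 endothelial markers to 4.85 to 1162 FPM in the 24 h controls. In bulk RNA, fewer cells of a type and less RNA per cell cannot be told apart.

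Spred3, Dusp4, Dusp5 and Errfi1 were DEG, higher, in all 3 incubations with U46619 after 24 h, and stretches of the Dusp5 and Errfi1 promoters are shown because they held a CArG or CRE sequence, whereas that of Spred3 held none of the sequences searched. RefSeq (GRCm38.p6) gave the 250 bases before a start for 8 of the 10 genes, with 9 starts in all, leaving Dusp4 and Spry4. They were searched on both strands for AP-1 (TGANTCA, in 6.75% of 32851 promoters), CRE (TGACGTCA, 1.55%), ETS (CCGGAAGT, 2.88%), EGR (GCGNGGGCG, 4.7%), TEAD (CATTCC, 12.6%) and CArG (1.47%) sequences, which do not overlap in the matches found. The Dusp5 promoter held 2 adjacent CArG sequences, given in capitals in the first line, at chr19:53529058-53529087 on the plus strand and 87 to 58 bases before the start. All 250 bases before this start of Dusp5 lie in annotated exons, both CArG sequences included. In GENCODE vM21 the Dusp5 gene begins at chr19:53529109, after the stretch shown, so the exon around the CArG sequences is not one of Dusp5. Of all promoters, 6 (0.0183%) held 2 or more. The second start of Errfi1 held 1 CRE, in capitals in the second line, at chr4:150854950-150855069 on the plus strand. The other matches were 1 TEAD sequence each at Spry1 and at the first start of Errfi1. These matches describe the letters of the reference and no binding was measured.
Dusp5: aatacCCATATTTGGCCTTATATGGgcact
Errfi1: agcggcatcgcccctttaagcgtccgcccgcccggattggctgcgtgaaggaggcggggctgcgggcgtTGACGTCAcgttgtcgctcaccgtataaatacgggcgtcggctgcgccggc

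In the 24 h controls, the median level per 1000 bases of exon was highest for Spry1, at 25.1 FPM, followed by Spry2 (15.2), Errfi1 (13.3), Dusp6 (12.5), Spred1 (11.1), Dusp4 (10.5), Spred2 (8.41), Dusp5 (3.40), Spred3 (2.50) and Spry4 (2.22). Neighbours in this order overlapped between the mice. The lowest Spry1 value, 19.0 FPM per 1000 bases, lay above the highest of Spred1 (16.1), Spred2 (10.0), Dusp5 (8.48), Spry4 (5.36) and Spred3 (4.07). Dusp6 spanned 0.822 FPM per 1000 bases in mouse 1 to 24.0 in mouse 6.

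With U46619 after 24 h, 5 of the 10 genes were DEG. Spred3, Dusp4, Dusp5 and Errfi1 were higher, against 12.8% of all genes tested that were called higher, and Spry1 was lower, against 13.8%. With EGF+U46619, 7 were DEG: Spred2, Spred3, Dusp4, Dusp5, Dusp6 and Errfi1 higher (16.2% of all genes tested) and Spry1 lower (15.7%). All 3 substances together gave the same direction for Spred3, Dusp4, Dusp5, Dusp6 and Errfi1 (17.5% higher) and for Spry1 (15.6% lower). EGF+AngII gave Spry4, Spred1, Dusp4 and Dusp6 as higher, at a background of 1.53% higher and 1.58% lower. None of the 10 was called with EGF alone, where 2 genes of all tested were higher and 2 lower (0.0136% each). That count of 0 holds for edgeR, which gave 8 of the 10 genes an unadjusted p under 0.05, whereas DESeq2 alone would call 4 (Spry4, Spred1, Dusp4 and Dusp6). The share of all genes tested under these looser criteria is not given here. These counts, and the like ones below, thus have no background beside them. The paper, which also required both tools, reports many more DEG with EGF after 24 h than were called here. The reason for that difference was not tested. With AngII alone the count was 0 in each tool, and 0 of the 10 had an unadjusted p under 0.05 in edgeR. There, 0 of all genes (0%) were called by both tools. The median log2-fold change over the 10 genes was 0.70 with EGF, −0.02 with AngII, 0.43 with U46619, 0.55 with EGF+AngII, 0.73 with EGF+U46619 and 0.67 with all 3, while the median of all genes tested stayed between −0.06 and −0.01. All of these comparisons share the same 6 control cultures.

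**Figure D1:**
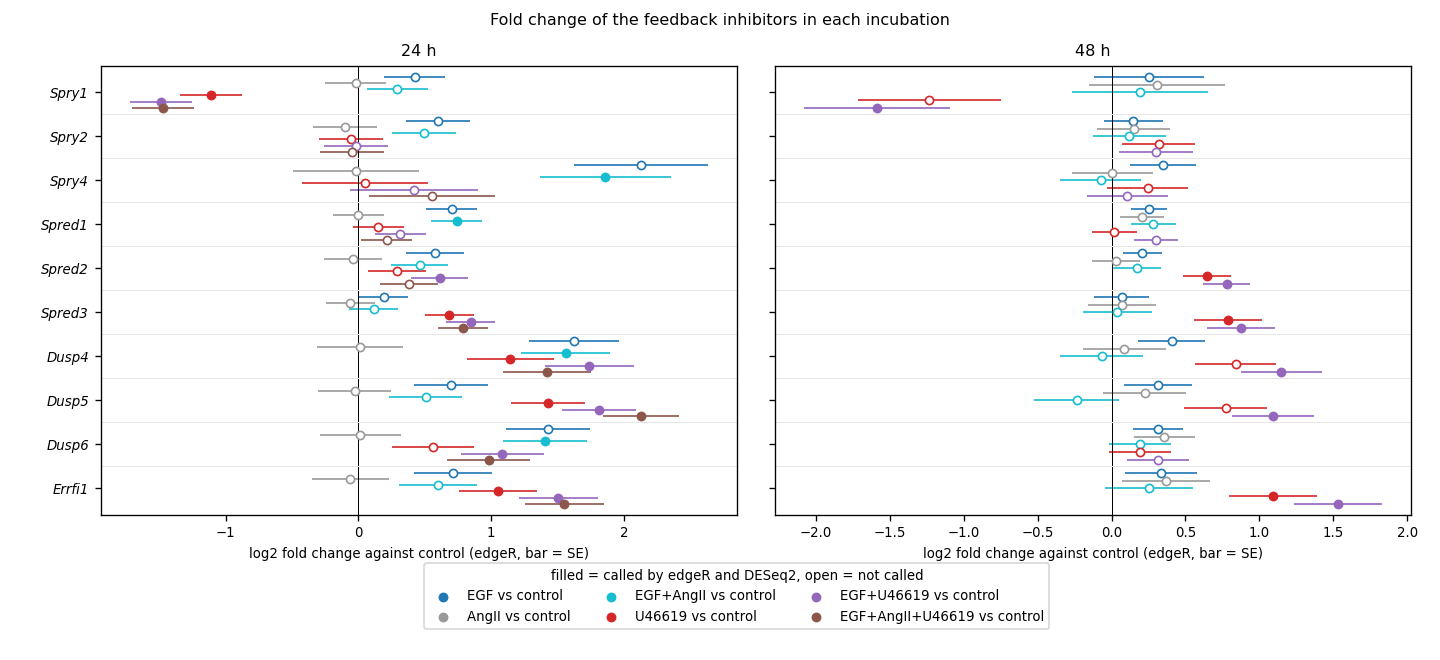
Log2-fold change of each gene against control (x axis) with its standard error from edgeR, for each incubation after 24 h (left, n = 6 mice) and 48 h (right, n = 5 culture sets, or 10 for EGF). Filled points were DEG in both edgeR and DESeq2; Spry1 lies below 0 in the incubations with U46619 at both times, at −1.49 with EGF+U46619 after 24 h.

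Errfi1, which acts on EGFR itself, was higher with U46619 in 5 of 6 mice after 24 h. The control values were 47.4, 97.6, 47.9, 39.9, 56.2 and 31.0 FPM in mice 1 to 6, and those with U46619 were 46.5, 389, 93.3, 62.7, 221 and 43.9 FPM. Mice 2 and 5 were far above the rest, mouse 1 was at the level of its control, and the groups overlapped. The log2-fold change was 1.05 ± 0.29 (SE, FDR = 0.00616 in edgeR and 0.00424 in DESeq2), and without mouse 2 or without mouse 5 Errfi1 was no longer called. With EGF+U46619 the values were 81.7, 421, 257, 69.2, 312 and 41.2 FPM, above the matching control in 6 of 6 mice (1.504 ± 0.30, FDR = 0.000178). With all 3 substances Errfi1 spanned 65.3 to 439 FPM (1.55 ± 0.30, FDR = 0.000102). EGF alone gave 78.2, 124, 212, 42.3, 86.6 and 36.6 FPM, where mouse 3 stood furthest above its control and the test was not passed (0.71 ± 0.29, FDR = 0.186). The difference between EGF+U46619 and EGF, 0.79 ± 0.29, did not pass either (FDR = 0.0594).

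After 48 h, Errfi1 was at 34.9, 57.5, 30.6, 32.3 and 85.3 FPM in the controls of sets B1-1 to B1-5 and at 37.1, 174.5, 81.3, 83.6 and 144 FPM with U46619. Set B1-1 differed least from its control, the other 4 sets were well above theirs, and the groups overlapped. The log2-fold change was 1.09 ± 0.30 (FDR = 0.0298) and 0.96 without the control of B2-4. With EGF+U46619 the values were 37.4, 244, 134, 105 and 196 FPM, the highest of the 4 groups in 5 of 5 sets, and Errfi1 was DEG against control (1.53 ± 0.30, FDR = 0.00159) and against EGF (1.20 ± 0.30, FDR = 0.015).

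Spry1 was the 1 member that fell against control. In the 24 h controls of mice 1 to 6 it was at 111, 119, 55.3, 64.1, 80.2 and 65.4 FPM, and with U46619 at 81.6, 35.7, 46.2, 21.8, 26.8 and 23.8 FPM. All 6 mice were lower than their own control, mouse 1 and mouse 3 by the least, and the groups overlapped through mouse 1. The log2-fold change was −1.11 ± 0.23 (FDR = 0.000493). EGF+U46619 gave 62.1, 33.9, 23.0, 20.5, 22.9 and 22.9 FPM (−1.49 ± 0.23, FDR = 1.29e-05), and all 3 substances gave 19.6 to 65.4 FPM (−1.47 ± 0.23, FDR = 1.04e-05). With EGF alone Spry1 was at 285, 250, 43.8, 55.8, 98.3 and 68.2 FPM, far above control in mice 1 and 2, by less in mice 5 and 6, and below it in mice 3 and 4 (0.42 ± 0.23, FDR = 0.327). Tested directly, Spry1 was lower with U46619 than with EGF (−1.53 ± 0.24, FDR = 0.000147) and lower with EGF+U46619 than with EGF in 6 of 6 mice (−1.91 ± 0.24, FDR = 7.7e-06).

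Fibroblast markers fell in the same cultures as Spry1: 5 of the 6 were DEG, lower, with U46619 after 24 h (13.8% of all genes) and 6 of 6 with EGF+U46619 (15.7%). Their sum lay between 378 and 3148 FPM in the controls and between 160.6 and 1890 FPM with U46619. Of the 6 smooth muscle markers tested, 2 were higher with U46619 (12.8% of all genes), Acta2 by 2.05 ± 0.39, and their sum rose from 1256 to 5380 FPM in the controls to 4426 to 15184 FPM. Endothelial markers summed to 2.20 to 1030 FPM with U46619 and 0 of 4 were called, although Cdh5 is listed at 0. Of 5 macrophage and leukocyte markers 3 were tested, and their sum had a median of 74.5 FPM in the controls (20.9 to 114 FPM), 36.4 FPM with U46619 (23.2 to 76.6 FPM) and 30.9 FPM with EGF+U46619 (21.96 to 61.9 FPM). Lyz2, a lysozyme gene, was lower with U46619 (−1.31 ± 0.23, FDR = 9.12e-05) and Csf1r, the receptor gene for macrophage colony-stimulating factor, higher (1.08 ± 0.23, FDR = 0.000537), while the defining markers Ptprc and Adgre1 had at most 1 and 3 counts in a 24 h library. The part of these markers in the changes of Spry1, Dusp5 and Errfi1 was not tested.

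After 48 h, Spry1 was at 124, 63.4, 55.4, 57.1 and 29.9 FPM in the controls of B1-1 to B1-5, at 45.4, 23.7, 18.9, 13.8 and 27.5 FPM with U46619 and at 44.0, 20.2, 14.3, 12.1 and 10.6 FPM with EGF+U46619. Each set was lower than its control in both incubations, and set B1-5 moved least with U46619. The change with EGF+U46619 was called (−1.59 ± 0.49, FDR = 0.0418) and so was that against EGF (−1.84 ± 0.50, FDR = 0.0263). Without the control of B2-4 the value against control was −1.68. The change with U46619 alone, −1.23 ± 0.48, was not called (FDR = 0.131), but it was with the culture set as the replicate block in place of the mouse.

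After 24 h, the mean of Spry4 was highest in the 2 groups with EGF and without U46619. Its 24 h controls held 2.04, 5.85, 9.61, 16.4, 11.5 and 25.5 FPM in mice 1 to 6, and the cultures with EGF 63.4, 73.5, 56.7, 14.99, 21.7 and 26.4 FPM. Mice 1 to 3 had the lowest controls and the highest values with EGF, mice 4 and 6 hardly moved, and the groups overlapped. The log2-fold change of 2.13 ± 0.50 missed the threshold in edgeR (FDR = 0.071) and passed it in DESeq2 (FDR = 0.00367). With EGF+AngII, Spry4 was at 36.1, 70.9, 48.7, 17.9, 20.5 and 30.5 FPM, above the control in 6 of 6 mice, and was called (1.86 ± 0.50, FDR = 0.0429). With U46619 it was at 6.15 to 22.2 FPM (0.05 ± 0.47, FDR = 0.949), and with EGF+U46619 at 9.00, 9.10, 32.8, 13.6, 10.8 and 16.4 FPM (0.42 ± 0.48, FDR = 0.51). Mice 1 and 2, at 63.4 and 73.5 FPM with EGF, thus held 9.00 and 9.10 FPM with EGF+U46619. The difference between EGF+U46619 and EGF was called (−1.71 ± 0.49, FDR = 0.0147) with every mouse on the same side, as was that between U46619 and EGF (−2.08 ± 0.50, FDR = 0.00493). Without mouse 1 or without mouse 2, Spry4 was no longer called for EGF+U46619 against EGF.

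Spry2 was not called in any 24 h comparison by edgeR or DESeq2, the lowest FDR being 0.0645 in DESeq2 for U46619 against EGF. It was at 19.9, 28.2, 47.3, 44.1, 31.9 and 31.4 FPM in the 24 h controls and at 34.3, 79.4, 75.1, 44.9, 40.9 and 27.5 FPM with EGF, higher in 5 of 6 mice (0.60 ± 0.24, FDR = 0.182). With U46619 the mice diverged, from 11.8 FPM in mouse 1 to 59.0 FPM in mouse 3, and the log2-fold change was −0.06 ± 0.24 (FDR = 0.88). After 48 h, Spry2 and Spry4 were not called in any comparison. Spry4 was at 24.6, 9.26, 10.0, 9.43 and 17.4 FPM in the controls of B1-1 to B1-5 and at 27.8, 14.4, 19.1, 10.8 and 29.5 FPM with EGF, higher in each of these sets. Spry2 spanned 20.8 FPM (AngII, B2-5) to 138 FPM (U46619, B1-5) after 48 h.

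**Figure D2:**
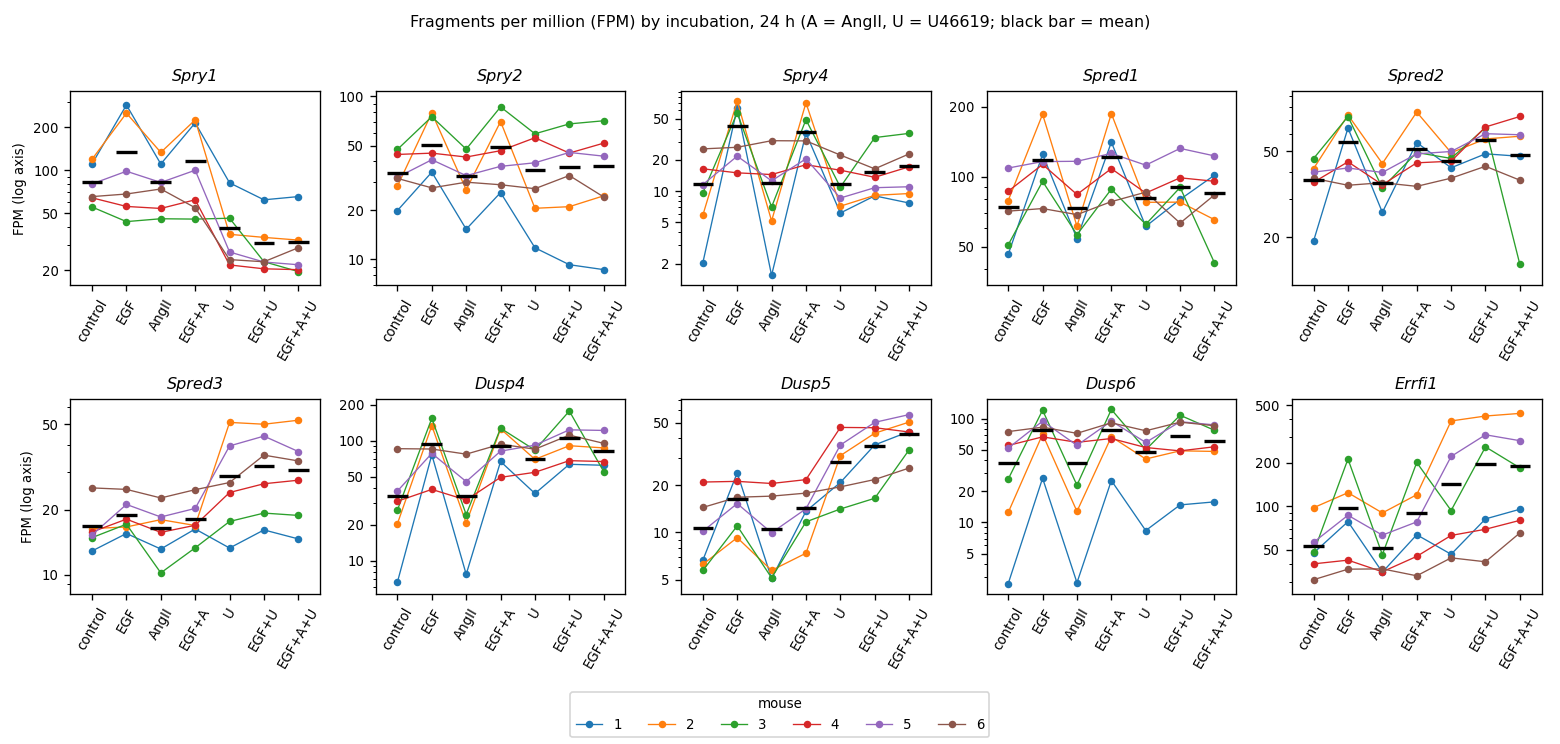
FPM of each gene on a log axis (y) in each incubation after 24 h (x), with 1 line per mouse (n = 6) and the group mean as a black bar. In mouse 1 Spry4 is at 2.04 FPM in the control, at 63.4 FPM with EGF and at 9.00 FPM with EGF+U46619, and Spred2 is at 15.006 FPM in mouse 3 with EGF+AngII+U46619.

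The 3 Spred genes, which act on RAS through neurofibromin, differed among themselves. Spred3 was higher with U46619. It was at 12.9, 16.4, 14.9, 15.8, 15.3 and 25.3 FPM in the 24 h controls and at 13.3, 51.1, 17.7, 24.1, 39.7 and 26.8 FPM with U46619. Mice 2 and 5 were furthest above their controls and mice 1 and 6 least, so that the groups overlapped (0.69 ± 0.19, FDR = 0.00494). EGF+U46619 gave 16.1 to 50.1 FPM (0.85 ± 0.19, FDR = 0.00055), and EGF alone 15.5 to 24.9 FPM (0.19 ± 0.18, FDR = 0.605). The difference between EGF+U46619 and EGF was called, in 6 of 6 mice (0.65 ± 0.19, FDR = 0.0141). Without mouse 5, Spred3 was no longer called with U46619, and without mouse 2, 4 or 5 it was not called for EGF+U46619 against EGF.

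Spred1 was called with EGF+AngII alone. The 24 h controls held 46.3, 79.0, 50.9, 86.6, 109 and 71.1 FPM and the cultures with EGF 125, 185.6, 95.5, 113, 116 and 73.0 FPM, higher in 6 of 6 mice but by little in mice 5 and 6 (0.70 ± 0.19, FDR = 0.088 in edgeR and 0.0326 in DESeq2). With EGF+AngII it spanned 78.2 to 186.8 FPM (0.74 ± 0.19, FDR = 0.0413). With U46619 it spanned 61.2 to 112 FPM (0.15 ± 0.19, FDR = 0.568), and the difference between U46619 and EGF, −0.55 ± 0.19, was just short of the threshold (FDR = 0.0509).

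Spred2 was called with EGF+U46619 alone among the 24 h incubations, at 48.7, 57.1, 64.4, 64.9, 60.4 and 42.7 FPM against 19.3, 41.6, 46.4, 36.0, 40.1 and 37.6 FPM in the controls. Each mouse was higher than its control, and mouse 6 at 42.7 FPM was the one culture below the highest control (0.61 ± 0.22, FDR = 0.0235). Its log2-fold change with EGF was 0.58 ± 0.22 (FDR = 0.156) and with all 3 substances 0.38 ± 0.22 (FDR = 0.158). Without the library of mouse 3 that stood apart, Spred2 was called with all 3 substances and with EGF+AngII as well, and without mouse 1, 2, 4 or 5 it was not called with EGF+U46619.

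After 48 h, Spred2 was higher with U46619 and with EGF+U46619. The controls of B1-1 to B1-5 held 36.4, 42.1, 28.2, 35.7 and 47.3 FPM, the cultures with U46619 54.0, 50.1, 50.1, 69.9 and 62.2 FPM and those with EGF+U46619 67.6, 54.0, 63.7, 66.2 and 61.5 FPM. Both treated groups lay above every control of the same batch, and the changes were called (0.65 ± 0.16, FDR = 0.0171, and 0.78 ± 0.16, FDR = 0.0027). Against EGF, EGF+U46619 was called too (0.57 ± 0.16, FDR = 0.0326), although within the sets of the batch the difference was 0.26 ± 0.28 (SD, n = 5, higher in 4 of 5) on the log2 scale and was not called in that batch alone. Spred3 was at 14.8, 14.0, 13.6, 16.3 and 23.3 FPM in these controls and at 21.9, 24.2, 32.8, 30.5 and 45.8 FPM with U46619, higher in 5 of 5 sets (0.79 ± 0.23, FDR = 0.0404), and at 22.9 to 45.1 FPM with EGF+U46619 (0.88 ± 0.23, FDR = 0.0153).

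Among the phosphatases, Dusp5 rose with U46619. It was at 6.65, 6.26, 5.72, 21.0, 10.2 and 14.4 FPM in the 24 h controls, at 20.8, 30.9, 14.1, 46.7, 36.1 and 19.5 FPM with U46619 and at 36.2, 42.9, 16.5, 46.6, 50.4 and 21.8 FPM with EGF+U46619. All 6 mice were above their own control in both incubations, mouse 6 by the least. The log2-fold changes were 1.43 ± 0.28 (FDR = 0.000254) and 1.81 ± 0.28 (FDR = 1.19e-05). With all 3 substances Dusp5 was at 44.0, 50.5, 33.6, 43.7, 56.4 and 25.8 FPM, every value above every control (2.13 ± 0.28, FDR = 1.2e-06). EGF alone gave 9.27 to 24.0 FPM (0.70 ± 0.28, FDR = 0.175), and the difference between EGF+U46619 and EGF was called, with 6 of 6 mice higher (1.12 ± 0.28, FDR = 0.00545), but not without mouse 2 or mouse 5. Genes on the opposite strand share 547 of the 2473 exon bases of Dusp5, 710 of 2906 of Spry1 and 202 of 6218 of Spred3, and had at most 18, 11 and 129 counts in a library, the last being Ggn at Spred3.

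Dusp4 rose after 24 h with U46619 and with each combination of substances. The 24 h controls were at 6.65, 20.4, 26.5, 31.3, 38.1 and 85.8 FPM. EGF gave 76.4, 134, 153.6, 39.3, 78.4 and 85.2 FPM (1.63 ± 0.34, FDR = 0.0572 in edgeR and 0.00115 in DESeq2), so the difference lay in mice 1, 2, 3 and 5, and mouse 6 was already as high without EGF. U46619 gave 36.3, 70.0, 83.5, 54.5, 91.8 and 85.0 FPM, again with no difference in mouse 6 (1.14 ± 0.33, FDR = 0.00747). EGF+U46619 gave 63.6, 90.8, 176.6, 68.2, 123 and 111 FPM, higher in 6 of 6 mice (1.74 ± 0.33, FDR = 0.000132). It was also above U46619 alone in 6 of 6 mice, by 0.60 ± 0.32, which did not pass the test (FDR = 1).

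Dusp6, the cytoplasmic ERK phosphatase, was called with each combination that held EGF. Its 24 h controls held 2.58, 12.5, 26.2, 55.2, 52.0 and 75.0 FPM in mice 1 to 6. EGF gave 26.7, 70.7, 121, 66.7, 94.6 and 82.8 FPM, higher in 6 of 6 mice but by little in mice 4 and 6 (1.43 ± 0.32, FDR = 0.071 in edgeR and 0.00397 in DESeq2). EGF+AngII gave 25.3, 66.8, 123, 64.3, 94.7 and 91.1 FPM, and Dusp6 was called there (1.41 ± 0.31, FDR = 0.0339), as was Dusp4 (1.56 ± 0.33, FDR = 0.0334). U46619 gave 8.36 to 76.4 FPM (0.56 ± 0.31, FDR = 0.158), and EGF+U46619 gave 14.8, 49.0, 108, 48.9, 93.4 and 92.4 FPM (1.08 ± 0.31, FDR = 0.00596). The difference between U46619 and EGF was negative in 6 of 6 mice, −0.86 ± 0.31, and just short of the threshold (FDR = 0.056).

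The 4 calls with EGF+AngII were sensitive to leaving out a mouse: none of Spry4, Spred1, Dusp4 and Dusp6 was called there without mouse 1, 2, 3 or 5. Each of these genes was above its control in 6 of 6 mice, and leaving out a mouse also removes samples. In turn, without mouse 6 the same 4 genes were called with EGF alone. The EGF+AngII and EGF groups themselves differed in 0 of the 10 genes by either tool, with 0 at an unadjusted p under 0.05 in edgeR. Of all genes, 0% were called by both tools. The log2-fold changes of the 10 genes between them lay between −0.27 and 0.04. Adding AngII to EGF+U46619 likewise gave 0 calls among the 10 by either tool, 0 at an unadjusted p under 0.05 and 0% of all genes called by both tools. The values ran from −0.32 (Dusp4) to 0.32 (Dusp5). In mouse 3, whose library with all 3 substances stood apart, Dusp4 was at 55.3 FPM there against 176.6 FPM with EGF+U46619. The median difference of Dusp4 within mice was −0.04 on the log2 scale.

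Direct comparisons ask what U46619 did beside EGF after 24 h. EGF+U46619 against EGF gave 4 DEG, Spred3 and Dusp5 higher (6.69% of all genes tested) and Spry1 and Spry4 lower (6.11%). U46619 against EGF gave Spry1 and Spry4 lower (5.08% of all genes) and 0 higher (5.96%). EGF+U46619 against U46619 asks what EGF added: 0 of the 10 genes and 0% of all genes were called by both tools, and 0 of the 10 had an unadjusted p under 0.05 in edgeR, although 9 of the 10 log2-fold changes were positive, up to 0.60 for Dusp4. The interaction of EGF and U46619, the departure from the sum of the separate changes, was negative for all 10 genes, from −0.03 for Spred3 to −1.76 ± 0.68 for Spry4. It was called for 0 of the 10 genes by either tool (FDR = 1 in edgeR) and for 0% of all genes by both tools. Of the 10, 4 (Spry1, Spry4, Dusp4 and Dusp6) had an unadjusted p under 0.05. The share of all genes with such an unadjusted p is not given here.

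After 48 h, U46619 gave 3 DEG of the 10, Spred2, Spred3 and Errfi1 (2.28% of all genes higher) and 0 lower (1.42%). These calls were sensitive to leaving out a set: 0 of them were made without set B1-3 or without B1-4, and Spred2 alone without B1-2. Each of these 3 genes was higher with U46619 in 5 of 5 sets, and leaving out a set also removes samples. EGF+U46619 gave Spred2, Spred3, Dusp4, Dusp5 and Errfi1 as higher (3.53%) and Spry1 as lower (2.77%), and without B1-3 or without B1-4 these calls were Spred2, Dusp4 and Errfi1. Against EGF, it gave Spred2, Spred3 and Errfi1 as higher (2.41%) and Spry1 as lower (2.02%), with 0 calls without B1-3 or B1-4. U46619 against EGF gave 0 calls (1.75% higher and 1.2% lower over all genes), with 4 of the 10 at an unadjusted p under 0.05 in edgeR and 2 called by DESeq2 alone. For the unadjusted p and for DESeq2 alone, the shares of all genes are not given here. With EGF, AngII and EGF+AngII against control, EGF+AngII against EGF, EGF+U46619 against U46619 and the interaction, 0 of the 10 were called by either tool. In these comparisons 0% of all genes were called by both tools. Of these, EGF alone had 1 of the 10 at an unadjusted p under 0.05 and the others 0.

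Dusp4 after 48 h was at 42.6, 60.2, 27.9, 64.6 and 33.0 FPM in the controls of B1-1 to B1-5 and at 131, 108, 82.5, 136 and 44.5 FPM with EGF+U46619, higher in 5 of 5 sets with B1-5 as the smallest change (1.15 ± 0.27, FDR = 0.0083). With U46619 alone it was at 105, 78.3, 60.8, 127 and 34.96 FPM (0.84 ± 0.27, FDR = 0.07), and it was called in that batch alone. Dusp5 was at 10.3, 8.55, 12.8, 18.7 and 23.1 FPM in these controls and at 15.1, 16.8, 38.0, 43.6 and 24.1 FPM with EGF+U46619, where B1-5 differed least (1.09 ± 0.28, FDR = 0.0131). It was not called in that batch alone. In the fit over both batches, the log2-fold change of Dusp6 against control reached at most 0.36 after 48 h, and no incubation passed the test. Differences within the sets of the EGF/U46619 batch were larger for EGF+U46619, at 0.49 ± 0.38 (SD, n = 5, 4 of 5 sets higher). For EGF they were 0.58 ± 0.21 in that batch (5 of 5), against 0.07 ± 0.63 in the EGF/AngII batch (3 of 5). Fitted on the EGF/U46619 batch alone, Dusp6 was called for EGF+U46619 but for neither substance by itself.

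**Figure D3:**
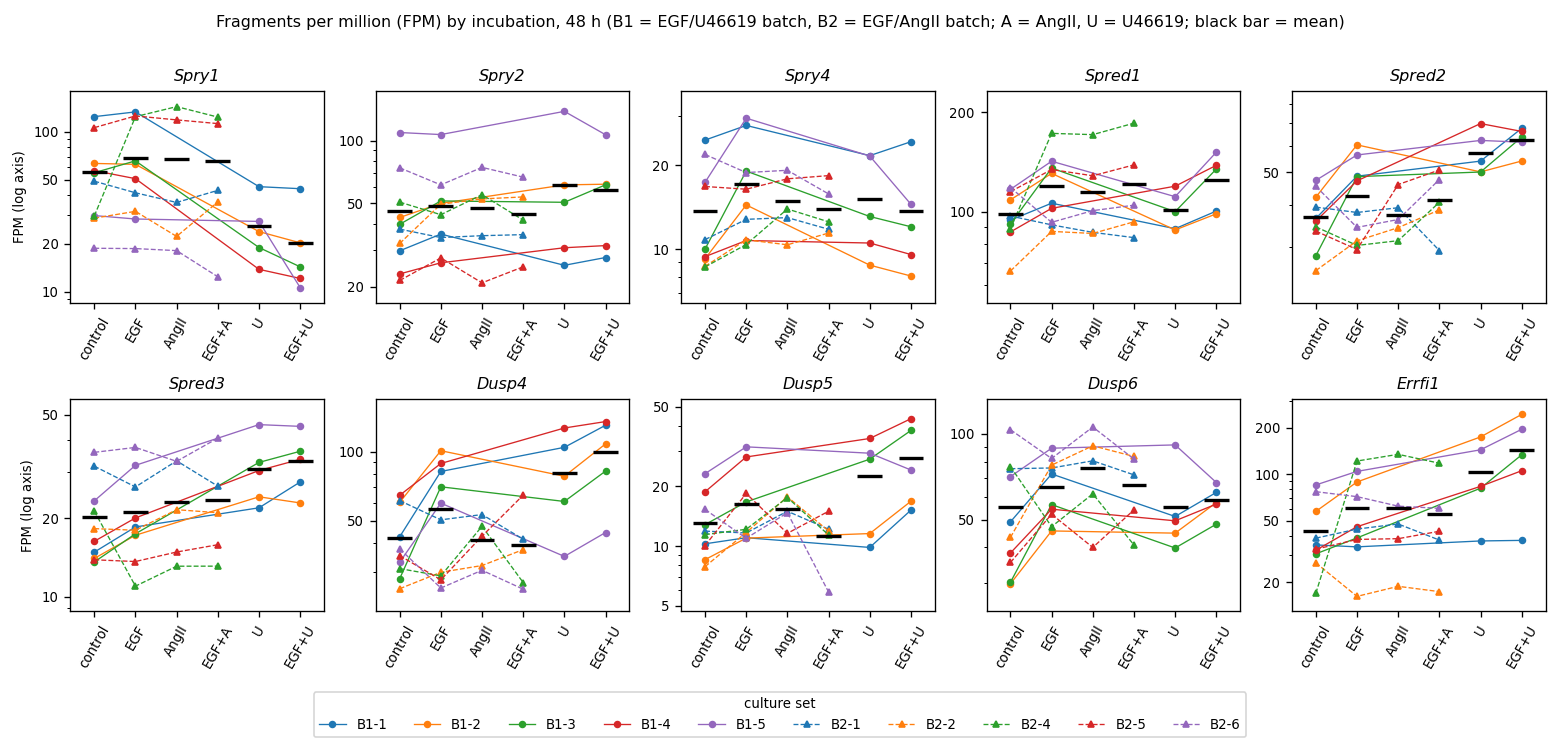
FPM of each gene on a log axis (y) in each incubation after 48 h (x), with 1 line per culture set, solid for the EGF/U46619 batch (n = 5) and dashed for the EGF/AngII batch (n = 5), and the group mean as a black bar. Spred2 with U46619 and with EGF+U46619 lies above all controls of its batch, and the control of set B2-4 lies below the rest of its set for Spry1 (29.7 FPM) and Errfi1 (17.0 FPM).

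EGF was the 1 substance given in both 48 h batches, so its changes can be read in each. In the EGF/U46619 batch, Dusp4 was at 82.2, 101.3, 70.4, 89.1 and 59.8 FPM with EGF, higher than its control in 5 of 5 sets, by 0.86 ± 0.31 (SD, n = 5) on the scale of log2(FPM + 0.5). In the EGF/AngII batch its controls were at 61.3, 25.3, 30.9, 35.3 and 37.7 FPM and the cultures with EGF at 50.5, 29.8, 28.7, 27.6 and 25.4 FPM, higher in 1 of 5 sets, by −0.21 ± 0.30 on average. Spred2 showed 0.47 ± 0.19 (5 of 5 sets higher) against −0.11 ± 0.25 (1 of 5), and Spred3 0.34 ± 0.07 (5 of 5) against −0.23 ± 0.41 (1 of 5). The Spred3 value rests on set B2-4, at −0.93, and without that set, left out after its value was seen, it was −0.06 ± 0.14 (n = 4). A fit of EGF and control libraries with the culture set as the block, chosen after these values were seen, tested the difference between the batches: 1.08 ± 0.18 for Dusp4 (unadjusted p = 7.56e-05, edgeR FDR = 0.294), 0.57 ± 0.15 for Spred2 (FDR = 0.294) and 0.58 ± 0.19 for Spred3 (FDR = 0.294), or 0.40 ± 0.13 (FDR = 0.253) for Spred3 without set B2-4. None of the 13987 genes tested passed (0%). By the labels, sets B1-1, B1-4, B2-1, B2-2 and B2-5 all came from mouse 7, and B1-5 and B2-4 from mouse 10. The fit and the SD treat each set as a replicate, although sets of 1 mouse may not be independent. What differed between the batches beside the incubations was not tested.

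**Figure D4:**
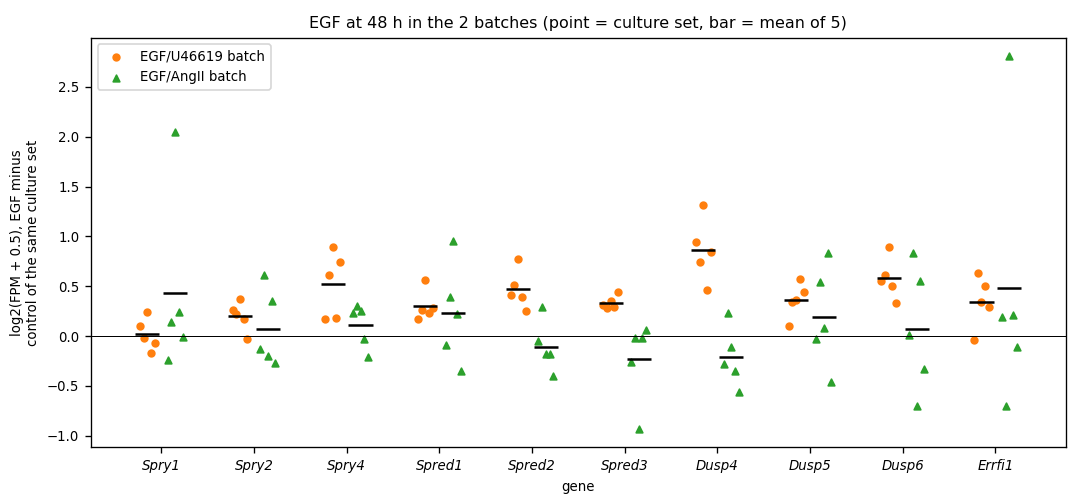
Difference between EGF and the control of the same culture set after 48 h, as log2(FPM + 0.5) (y), for each gene (x) in the 2 batches; each point is 1 set and the bar is the mean of 5 sets. Dusp4 lies above 0 in 5 of 5 sets of the EGF/U46619 batch and in 1 of 5 sets of the EGF/AngII batch, and the points near 2.05 for Spry1 and 2.81 for Errfi1 are set B2-4.

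Levels centred within each mouse over the 42 libraries of 24 h described which members moved together, as a description across libraries that share mice and incubations. Dusp4 and Dusp6 had a Pearson correlation of 0.92, Dusp5 and Errfi1 0.88, Spred3 and Errfi1 0.85, and Spry4 and Dusp6 0.85. Spry1 ran opposite to Spred3 (−0.81) and Dusp5 (−0.75). Centred within culture sets, the 40 libraries of 48 h gave 0.57, 0.53, 0.40 and 0.35 for the 4 positive pairs and −0.85 and −0.40 for the 2 negative ones. Over 10162 genes, the most similar gene was Etv5 for both Spry4 (0.91 after 24 h, 0.53 after 48 h) and Dusp6 (0.95 and 0.78), a transcription factor gene that ERK signaling induces. It was Col6a2 for Spry1 (0.95 and 0.86), with its collagen VI partner Col6a1 also among the most similar genes (0.94 and 0.89), Hmga2 for Errfi1 (0.94 and 0.44), Pa2g4 for Dusp5 (0.96 and 0.49), Lmnb1 for Dusp4 (0.93 and 0.34), Slc20a2 for Spred3 (0.92 and 0.81), Tgfbr1 for Spred1 (0.95 and 0.80), Gfpt1 for Spred2 (0.88 and 0.86) and Ptger4 for Spry2 (0.90 and 0.43).

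Other genes of the pathway were read from lists chosen by function. A list of 12 genes was chosen as transcriptional output of ERK, although ERK activity was not measured in these libraries. Of the 12, 7 were DEG, all higher, with U46619 after 24 h (12.8% of all genes) and 8 with EGF+U46619 (16.2%). EGF+AngII gave 4 (1.53%) and EGF 0 (0.0136%). With EGF, 8 had an unadjusted p under 0.05 in edgeR and DESeq2 alone would call 4. The counts by unadjusted p and by DESeq2 alone have no share of all genes beside them. Fosl1, an AP-1 subunit, had the largest value with U46619 (2.65 ± 0.55, FDR = 0.000476). Among the others were the EGFR ligand genes Ereg (1.73 ± 0.29, FDR = 6.32e-05) and Hbegf (1.56 ± 0.34, FDR = 0.000777). The ETS factor gene Etv4 was at 1.23 ± 0.47 with U46619 (FDR = 0.0386) and at 2.14 ± 0.49 with EGF, which was not called (FDR = 0.071). The median of the 12 genes with U46619 was 1.248 and that of all genes −0.06.

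The other MAP kinase phosphatases, which act mainly on p38 and JNK or on all 3 kinases, had 4 of 5 tested genes higher with U46619 after 24 h, against 12.8% of all genes: Dusp8 (1.246 ± 0.36, FDR = 0.00715), Dusp10 (0.80 ± 0.30, FDR = 0.0369), Dusp1 (0.75 ± 0.21, FDR = 0.00574) and Dusp16 (0.52 ± 0.19, FDR = 0.0319). With EGF and with EGF+AngII, 0 of the 5 were called by edgeR or DESeq2 and 0 had an unadjusted p under 0.05 in edgeR. Among the genes of the RAS, RAF, MEK and ERK cascade, Hras (0.58 ± 0.21, FDR = 0.0283) and Nras (0.56 ± 0.11, FDR = 0.000235), which encode RAS proteins, were higher with U46619, and the scaffold gene Ksr1 was lower (−0.88 ± 0.19, FDR = 0.000729). Araf and Map2k1 are listed at 0. Rasa1 (0.92 ± 0.22, FDR = 0.00118) and Rasal2 (0.88 ± 0.26, FDR = 0.00732), which encode RAS GTPase-activating proteins, were higher with EGF+U46619. Gab1, a docking protein downstream of EGFR, was the 1 of 8 tested adaptor and ubiquitin ligase genes called with U46619 (−1.10 ± 0.16, FDR = 1.51e-05, against 13.8% of all genes lower), and with EGF+U46619 Frs2 (0.36 ± 0.14, FDR = 0.0309) and Ptpn11 (0.41 ± 0.15, FDR = 0.0258) were called as higher beside it. Of 6 further receptor-level inhibitors, with U46619 Il17rd was lower (−0.70 ± 0.24, FDR = 0.0239) and Socs5 higher (0.33 ± 0.10, FDR = 0.0154). In the EGF receptor family, 0 of 3 tested genes were called with U46619 by edgeR or DESeq2 and 1 had an unadjusted p under 0.05 in edgeR, with Egfr at −0.24 ± 0.23 (FDR = 0.445).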

How the data were processed

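RNA of 82 libraries was sequenced as paired-end reads after poly(A) selection, 42 after 24 h and 40 after 48 h. Alignment by the authors used HISAT2 2.1.0 and mm10, and featureCounts gave the counts per gene, multi-mapping reads included; whether strand was used is not given in the sources used here. The deposited counts are raw, and genes of chromosomes 9, X, Y and MT are listed at 0. Here, edgeR 4.0.16 (quasi-likelihood test, TMM, filterByExpr) and DESeq2 1.42.0 (Wald test) in R 4.3.3 were fitted per time over all groups with mouse and treatment as terms. The 48 h fits had no term for batch or culture set, although some mice had sets in both batches by the labels. A call needed a Benjamini-Hochberg FDR under 0.05 in both tools over all genes, a mean of 5 FPM in 1 compared group and passing the filter at both times. Unless DESeq2 is named, log2-fold changes, SE and FDR are those of edgeR. Differences within a mouse or set were taken as log2(FPM + 0.5).

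Libraries were grouped by the GEO labels. The mouse numbers come from the labels. Libraries of 1 mouse correlated above 0.1 in 126 of 126 pairs at 24 h (lowest 0.366), and those of 1 culture set in 57 of 60 at 48 h (lowest −0.454). The 48 h group means were taken over both batches, so batch differences also enter these correlations. Different 48 h sets of 1 mouse were not compared, so the 48 h mouse numbers were not checked in this way. At 48 h the labels give 5 mice for 10 culture sets, whereas the methods describe a different mouse per replicate, so culture sets of 1 mouse may not be independent. Precision is limited by the number of mice and by counting error at low counts. Exon lengths came from GENCODE vM21. The members, the lists and the rule for named genes (at most 4 called genes per list with the greatest change with U46619 or EGF+U46619 at 24 h, and the 3 genes most correlated with each member) were chosen with earlier results of these data known. The fits were tested on simulated data. Alternatives were another normalization, other filters, each tool alone, no mouse term, the culture set as block, each batch alone and leaving out each replicate. Some pathway genes, and the counts of the lists that hold them, are not reported here.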

Additional observations from a re-analysis of the deposited data

Results flagged for a closer look

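Among 110 groups of within-mouse or within-set differences, on the scale of log2(FPM + 0.5), 12 held a value set apart from the rest of its group by Dixon's criterion, which chance alone meets in about 1 in 20 groups. Of these, 5 came from set B2-4 after 48 h, whose control library stands apart. There, EGF minus control was 2.05 for Spry1, −0.93 for Spred3 and 2.81 for Errfi1, and AngII minus control was 2.25 for Spry1 and 2.95 for Errfi1. After 24 h, Errfi1 in mouse 3 was 2.14 above control with EGF, the next mouse being at 0.71, and 2.06 with EGF+AngII. In mouse 1, Spred2 with U46619 was at 1.10, Spred1 with EGF+AngII+U46619 at 1.13 and Spry2 with AngII at −0.37. After 48 h, Spry2 was at −0.23 with U46619 in B1-1 and at 0.70 with AngII in B2-2.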

How the results depend on the processing

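Of 980 single-gene values under the alternatives, 827 kept their direction and side of the threshold, 108 fell short of it, 45 newly passed it and 0 called values changed sign, while some values that were not called did. The number of the 10 genes called moved as follows. Without the replicate block (mouse pairing), U46619 called 1, EGF+AngII 0, EGF+U46619 against EGF 1 and U46619 against EGF 0 after 24 h, and U46619 called 1, EGF+U46619 3 and EGF+U46619 against EGF 0 after 48 h. For EGF after 24 h, DESeq2 alone called 4 and no filter on low counts 3. For U46619 against EGF after 24 h, DESeq2 alone, a minimum of 10 counts in every library and, added after seeing the data, leaving out the EGF+AngII+U46619 culture of mouse 3 each called 4. For EGF+U46619 against EGF after 48 h, no filter on low counts called 2. For U46619 against EGF after 48 h, DESeq2 alone called 2, the culture set as the replicate block 2 and the EGF/U46619 batch alone 1. Leaving out each replicate gave 0 to 4 with EGF, 3 to 5 with U46619, 0 to 4 with EGF+AngII, 1 to 5 for EGF+U46619 against EGF and 1 to 4 for U46619 against EGF after 24 h. After 48 h it gave 0 to 3 with U46619, 3 to 6 with EGF+U46619, 0 to 4 for EGF+U46619 against EGF and 0 to 1 for U46619 against EGF. Leaving out a replicate also removes samples; other causes were not tested.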

Other observations

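After 48 h, several genes of the pathway lists were called with U46619 and with EGF+U46619, as values chosen after they were seen. Fosl1 was higher by 1.79 ± 0.36 (edgeR FDR = 0.00339) and 1.91 ± 0.36 (FDR = 0.00107), and the MYC transcription factor gene Myc by 0.84 ± 0.17 (FDR = 0.00434) and 1.04 ± 0.17 (FDR = 0.000311). The phosphatase gene Dusp10 was higher by 0.83 ± 0.23 (FDR = 0.0293) and 1.08 ± 0.22 (FDR = 0.0027), and Lrig1, which promotes the degradation of EGFR family receptors, by 0.73 ± 0.22 (FDR = 0.0498) and 0.91 ± 0.22 (FDR = 0.0087). Gab1 was lower, at −0.62 ± 0.14 (FDR = 0.00739) and −0.87 ± 0.14 (FDR = 0.000208). The fibroblast markers Scara5 (−3.31 ± 0.78, FDR = 0.012) and Pi16 (−1.58 ± 0.40, FDR = 0.0176) were lower with U46619 in the same cultures, and their part in these changes was not tested.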
